A study of Mus musculus with 16 samples.

Results

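The genes described here were the ligands and receptors of axon guidance: semaphorins with their plexin and neuropilin receptors, ephrins with Eph receptors, Slits with Robos, and netrins with Dcc and the Unc5 receptors. They were chosen by gene symbol alone, as every line of the 2 expression tables whose symbol belongs to one of these families, and 69 of 55471 lines met this rule. Of the 69 genes, 35 encode ligands (20 semaphorins, 8 ephrins, 3 Slits and 4 netrins) and 34 encode receptors (14 Eph receptors, 9 plexins, 2 neuropilins, 4 Robos, and 5 of the Unc5 and Dcc group). Some semaphorins and the B-type ephrins span the membrane and can act as receptors as well; they were counted as ligands.

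The cells were neural stem cells (NSC) from the cortex of C57BL/6 mouse embryos at E15 to E16, pooled without regard to sex and grown as monolayers. They had been transduced with a lentivirus that carries either a scrambled shRNA (shRNA-CON) or 1 shRNA against the long non-coding RNA RUS (shRNA-RUS), so the control cells carried a virus and an shRNA too. Cells were taken on day 5 after seeding, the day on which bFGF was withdrawn and differentiation was started, and on day 7. Whether the day 5 cells were taken before or after that change of medium is not given in the sources used here. There were 4 polyA RNA-seq libraries in each of the 4 groups, 16 in all. With a single shRNA, its effect in these libraries cannot be told apart from effects on other transcripts it may bind. The paper chose an shRNA without predicted off-targets, and expressing RUS again largely brought back cells positive for β-tubulin III. No such rescue is among the 16 libraries.

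Axon guidance cues act over short or long range on the growth cone, the motile tip of a growing axon, and attract or repel it. Semaphorins signal through plexins, most class 3 members with a neuropilin as coreceptor. Ephrins bind Eph receptor tyrosine kinases on neighbouring cells, secreted Slits bind Robos, and netrins bind Dcc, mostly as an attractant, and Unc5 receptors as a repellent. In the cortex the same proteins also act in neural progenitors and in the migration of young neurons.

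Expression was deposited as TPM (relative transcript abundance), a unit corrected for transcript length, which allows levels of different genes to be compared. Values below are scaled TPM, that is TPM divided by a library factor (0.845 to 1.10), and log2 fold changes come from limma on log2(scaled TPM + 0.1), with a call at an adjusted p below 0.05; values after ± are the SE of the log2 fold change. TPM keep no read depth, so that of each library is not known. The transcript of RUS (Gm20754) was itself at the edge of detection: TPM as deposited were 0.240, 0.110, 0.180 and 0.160 in shRNA-CON and 0.05, 0, 0.120 and 0.320 in shRNA-RUS on day 5, and 0.700, 0.720, 0.260 and 0.540 against 0.540, 0.380, 0 and 0.0400 on day 7. On day 5 the library shRNA-RUS replicate 4 lay above all control libraries, so these TPM values do not separate the groups. By RT-qPCR the paper reports reduced RUS in the knockdown cells of its transcriptome experiment. Markers of neural stem and radial glia cells (Nes, Sox2, Vim and others) had summed levels of 11607.1 to 13772.8 scaled TPM in shRNA-CON and 16872.7 to 20423.7 in shRNA-RUS on day 5, and 6103.7 to 6425.1 and 6461.9 to 7057.5 on day 7. These sums were higher in shRNA-RUS without overlap on both days and lower on day 7 than on day 5, with 3 of the 7 markers called higher and 2 lower on day 5 and 2 higher and 3 lower on day 7. Of all genes tested, 14.8% were called higher and 17.9% lower on day 5, and 23.4% and 25.8% on day 7. Most of the sum of these stem cell markers was Vim and Fabp7, while Nes was lower in shRNA-RUS on both days (-0.87 and -1.19). Endothelial markers summed to 6.24 to 6.80 in shRNA-CON and 3.56 to 4.98 in shRNA-RUS on day 5 and to 6.88 to 7.45 and 3.32 to 4.17 on day 7, most of it Kdr, the only one of the 4 tested that was called (-0.91 and -1.30). Markers of dividing cells were called lower in shRNA-RUS, 5 of 5 on each day, beside 17.9% and 25.8% of all genes. Their sums were 523.7 to 543.5 against 304.2 to 343.2 on day 5 and 531.6 to 547.1 against 232.4 to 256.5 on day 7. In bulk RNA, fewer cells of a type and less RNA per cell cannot be told apart.

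On day 5, 27 of the 65 members tested were called, 11 higher and 16 lower in shRNA-RUS, and their median log2 fold change was -0.15. Of all 22581 genes tested 32.7% passed, 14.8% higher and 17.9% lower, around a median of -0.06. The ligands split evenly, 7 higher and 7 lower of 34. Among receptors 4 of 31 were higher (Epha7, Ephb4, Ephb6 and Robo1) and 9 were lower. Sema3g, Epha8, Epha10 and Robo4 were too low to be tested on this day. The split depended on the scaling: with TPM as deposited, which moves the median of all genes to -0.21, 4 members were called higher and 26 lower, beside 7.83% and 26.7% of all genes. The count of higher members also fell to 6 or 7 without any one of 5 libraries (shRNA-CON replicates 2 and 3, shRNA-RUS replicates 1, 2 and 3), and without shRNA-RUS replicate 4, which lay nearest to the controls for several members, it was 10 higher and 20 lower.

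On day 7, 40 of 67 members tested were called, 29 higher and 11 lower in shRNA-RUS, with 0.20 as the middle value of their log2 fold changes. The background on day 7 was 49.2% of 24606 genes called, 23.4% higher and 25.8% lower, and -0.03 as the middle value. Receptors were higher in 16 and lower in 5 of 34, and ligands were higher in 13 and lower in 6 of 33. Sema3g and Ntn5 were not tested. The groups did not overlap in 41 of the 67 members, against 46.8% of all genes, and TPM as deposited gave 30 higher and 11 lower.

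**Figure D1:**
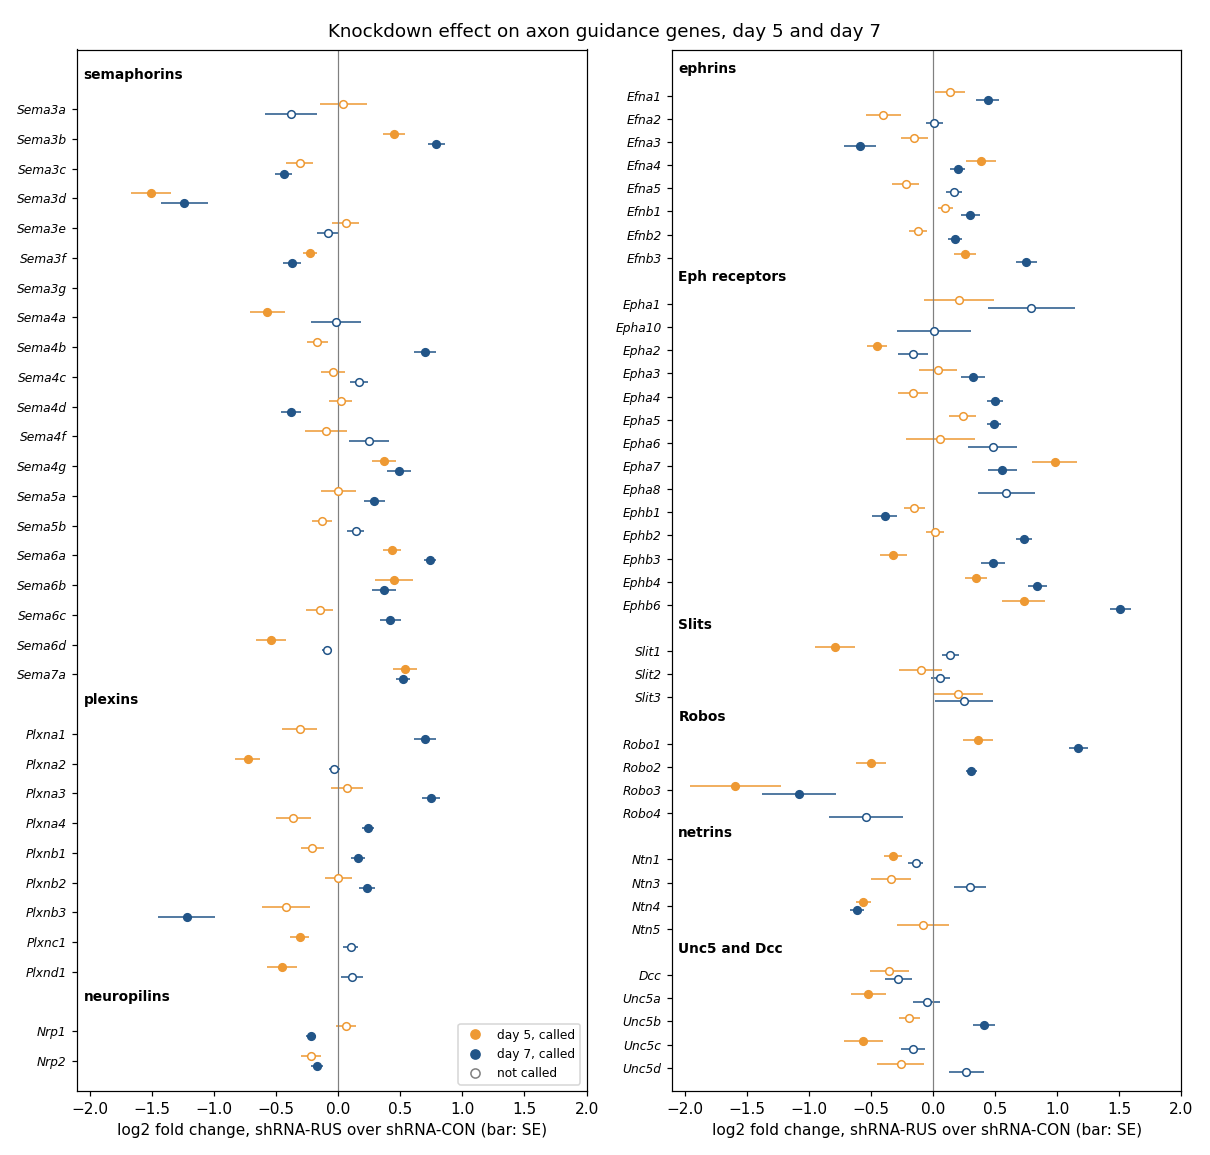
Log2 fold change of shRNA-RUS over shRNA-CON (x axis) for each axon guidance gene (rows, grouped by family) on day 5 in orange and day 7 in blue; bars are the SE, filled points passed an adjusted p of 0.05, and genes without a point were not tested on that day. Of the plexins none was called higher on day 5 and 5 were on day 7, and Ephb6 has the highest day 7 value (1.51).

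Of the 64 members tested on both days, 11 were called higher on both and 4 lower on both. The former are all 11 members called higher on day 5, of which 7 (Efna4, Efnb3, Ephb4, Robo1, Sema4g, Sema6a and Sema6b) lost that call with TPM as deposited. Over all genes tested on both days the shares were 9.68% and 12%; the members' shares were 17.2% and 6.25%. Ephb3 and Robo2 were called lower on day 5 and higher on day 7, a pattern that 1.23% of all genes had. No member was higher on day 5 and lower on day 7 (1.71% of all genes), and none was higher on day 5 alone (3.84%), while 10 were lower on day 5 alone (15.6% against 5.14%). On neither day were 14 called, 21.9% against 37.5% of all genes. A further 16 members, among them Ephb2 and 5 plexins, were called higher on day 7 alone, which is 25% of the 64 against 14.8% of all genes. Another 7 were called lower on day 7 alone, 10.9% against 14.1% of all genes.

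The promoters of 3 genes are shown for the members that stood at the ends of the range: Ephb6, which had the largest increase on day 7, and Robo3 and Sema3d, which had the largest decreases on day 5 and were lower on day 7 too, when Plxnb3 (-1.22) lay between them. Sema3d and Robo3 lie below the level that the rule for named genes asks for, a mean of 1 in unscaled TPM across the 8 libraries of each day, and were chosen after their values were seen. The sequences are from RefSeq (GRCm38.p6), run 5′ to 3′ on the strand of the gene from 250 bases before to 50 bases after its start, and have the GC box GGGCGG or its complement CCGCCC in capitals.
Ephb6, chr6:41605261-41605560, + strand: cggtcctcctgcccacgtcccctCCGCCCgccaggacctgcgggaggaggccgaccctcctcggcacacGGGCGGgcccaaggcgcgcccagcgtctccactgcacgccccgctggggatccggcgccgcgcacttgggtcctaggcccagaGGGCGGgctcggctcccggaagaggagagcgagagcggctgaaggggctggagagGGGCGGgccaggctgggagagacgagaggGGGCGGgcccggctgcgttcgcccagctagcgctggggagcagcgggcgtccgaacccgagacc
Robo3, chr9:37433126-37433425, - strand: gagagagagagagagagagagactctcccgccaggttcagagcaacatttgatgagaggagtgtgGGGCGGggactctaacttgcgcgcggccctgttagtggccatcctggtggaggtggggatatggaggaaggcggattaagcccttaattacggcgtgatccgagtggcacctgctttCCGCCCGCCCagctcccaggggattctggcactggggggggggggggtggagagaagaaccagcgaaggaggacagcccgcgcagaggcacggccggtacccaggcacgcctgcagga
Sema3d, chr5:12382916-12383215, + strand: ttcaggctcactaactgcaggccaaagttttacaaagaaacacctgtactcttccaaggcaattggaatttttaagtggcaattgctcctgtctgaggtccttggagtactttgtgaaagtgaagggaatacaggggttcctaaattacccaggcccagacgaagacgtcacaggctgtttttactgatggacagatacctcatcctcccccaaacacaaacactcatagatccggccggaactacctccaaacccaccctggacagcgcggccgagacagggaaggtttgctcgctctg
The promoter of Ephb6 held 5 GC boxes and a GC content of 76.3%. That of Robo3 held 3 at 63.3%, where 2 of the boxes overlap, and that of Sema3d held none at 49.7%. Among the 75 promoters listed for 59 of the 69 members, 70.7% held a GC box on either strand and 2.67% the word TATAAA or its complement TTTATA, which do not overlap with the GC box. In all 32851 promoters of the table the shares were 35.7% and 13.6%, and the median GC content was 52.7%, against 64.3% for the members. These are letters in a window; binding was not measured.

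Eph receptors, the largest group of receptor tyrosine kinases, were called mostly higher on day 7, with 8 of 14 higher, 1 lower and a median of 0.49 on the log2 scale. On day 5 it had been 3 higher and 2 lower of 12, with a median of 0.05. Their summed level was 115.3 to 122.0 scaled TPM in the shRNA-CON libraries of day 7 and 173.9 to 186.5 in those of shRNA-RUS. On day 5 the sums overlapped, at 123.4 to 134.2 and 122.2 to 148.3. The 5 EphB receptors, which bind mainly the membrane-spanning ephrins-B, were all called on day 7, 4 higher and Ephb1 lower.

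Ephb6 (chr6:41605482-41620509, + strand, GRCm38), a member of the family whose kinase domain is inactive, had 7.05, 7.68, 7.41 and 6.56 scaled TPM in shRNA-CON on day 7 and 17.3, 21.4, 22.1 and 20.9 in shRNA-RUS. The lowest shRNA-RUS library lay far above the highest control, and the log2 fold change was 1.51 ± 0.088, adjusted p = 1.14e-06. On day 5 the levels were 5.79, 5.12, 6.95 and 8.24 against 9.18, 12, 12.8 and 9.33, again without overlap, at 0.73 ± 0.17, adjusted p = 0.00880. The effect was larger on day 7, by 0.76 ± 0.20, adjusted p = 0.00835.

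Ephb2, at the highest level of the Eph receptors, gave 37.1% to 41.3% of their sum on day 5. On day 5 it lay at 53.2, 50, 50.5 and 52.6 in shRNA-CON and at 45.4, 55, 53.1 and 56.6 in shRNA-RUS, ranges that overlap (0.02 ± 0.073, adjusted p = 0.836). On day 7 the control libraries had 31.3, 32, 33.5 and 29.6 and the shRNA-RUS libraries 46.4, 53.5, 55.2 and 52.5. The groups were then well apart, at 0.73 ± 0.064, adjusted p = 1.31e-05. In shRNA-CON Ephb2 fell from day 5 to day 7, by 0.70 on the log2 scale, and in shRNA-RUS its mean was 52.5 on day 5 and 51.9 on day 7.

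Ephb4, known from the separation of veins and arteries, was higher in shRNA-RUS on both days. Day 5 libraries had 8.76, 9.07, 9.33 and 9.58 in shRNA-CON and 10, 13.1, 12.1 and 11.8 in shRNA-RUS, and day 7 libraries 7.61, 7.59, 8.67 and 7.56 and 12.6, 14.4, 13.5 and 15.5. The groups overlapped on neither day, and the log2 fold changes were 0.35 ± 0.088, adjusted p = 0.0150 on day 5 and 0.84 ± 0.078, adjusted p = 1.80e-05 on day 7. With TPM as deposited the day 5 value was 0.19 (limma, adjusted p = 0.163). Ephb3 was lower on day 5, at -0.32 ± 0.11, adjusted p = 0.0460, and higher on day 7, at 0.48 ± 0.097, adjusted p = 0.00247; its group means were 6.96 and 5.58 scaled TPM on day 5 and 8.12 and 11.3 on day 7. The day 5 call of Ephb3 was lost without any single library other than shRNA-RUS replicate 4, with adjusted p of limma up to 0.117. Ephb1 was the exception, with 7.01, 6.94, 6.39 and 6.65 in shRNA-CON and 4.35, 5.0, 5.09 and 6.03 in shRNA-RUS on day 7. Every shRNA-RUS library lay below the controls, and the log2 fold change was -0.39 ± 0.098, adjusted p = 0.00862.

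Of the EphA receptors, which bind mainly the GPI-anchored ephrins-A, 4 of 9 were higher on day 7 and none was lower; Epha3, Epha4, Epha5 and Epha7 ranged from 0.32 to 0.56. Epha3 lost the call without shRNA-CON replicate 3 or shRNA-RUS replicate 1 (adjusted p of limma up to 0.0616) and with 75th percentile scaling (0.0856). Epha7 was at 1.98, 1.60, 1.79 and 1.22 scaled TPM in shRNA-CON and 3.37, 2.85, 2.91 and 4.30 in shRNA-RUS on day 5, where its log2 fold change was 0.98 ± 0.18, adjusted p = 0.00277. It was the largest increase of any member on that day and the groups did not overlap. On day 7 it was at 2.05, 2.56, 2.63 and 2.62 and 3.63, 3.66, 4.23 and 3.06, at 0.56 ± 0.12, adjusted p = 0.00433. Epha4, which also acts in progenitors, had means of 18.4 and 16.5 on day 5 (-0.16 ± 0.12, adjusted p = 0.346) and of 25.5 and 35.8 on day 7 (0.50 ± 0.064, adjusted p = 0.000150). Epha2 was the one EphA receptor called lower on day 5 (-0.45 ± 0.081, adjusted p = 0.00277). Epha1, Epha6, Epha8 and Epha10 were low, under 1 scaled TPM on average, and none of them was called on either day where it was tested.

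Among the 8 ephrins 5 were higher and Efna3 lower on day 7, and 2 (Efna4 and Efnb3) were higher and none lower on day 5. All 3 ephrins-B were higher on day 7. Efnb3, a cue of the midline of the spinal cord, had 6.41, 7.10, 7.84 and 7.87 scaled TPM in shRNA-CON and 12, 11.7, 11.6 and 13.7 in shRNA-RUS. The lowest shRNA-RUS library lay well above the highest control, and the log2 fold change was 0.75 ± 0.084, adjusted p = 5.74e-05. On day 5 the libraries had 8.68, 7.21, 7.41 and 8.17 and 8.98, 10.4, 9.46 and 8.89, at 0.26 ± 0.087, adjusted p = 0.0448. That smaller value lost its call without 6 of the 8 libraries in turn (all but shRNA-CON replicate 1 and shRNA-RUS replicate 4), with adjusted p of limma up to 0.118.

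Efnb2, the ephrin with the highest level, stood at 24.9, 25.1, 28 and 27.2 in shRNA-CON and 28.8, 27.9, 29.4 and 32 in shRNA-RUS on day 7. The highest control library lay inside the range of shRNA-RUS, and the log2 fold change was 0.18 ± 0.057, adjusted p = 0.0270. It lost the call without 4 of the 8 libraries in turn (shRNA-CON replicates 1 and 2, shRNA-RUS replicates 3 and 4), where the adjusted p reached 0.0771. On day 5 Efnb2 had 22.5, 19.4, 20.2 and 19.5 and 18, 18.2, 18.1 and 20.6, with overlap (-0.12 ± 0.072, adjusted p = 0.224). Efna3 went the other way from its neighbours: on day 7 the libraries had 3.24, 2.48, 3.59 and 2.80 and 2.10, 2.07, 1.85 and 1.78, with every shRNA-RUS library below the controls (-0.59 ± 0.13, adjusted p = 0.00421). On day 5 Efna3 had 4.26, 4.77, 4.63 and 4.62 and 3.86, 5.01, 3.63 and 4.0 (-0.15 ± 0.11, adjusted p = 0.339). Efna1, Efna3 and Efna4 lie in a row on chromosome 3, with 32756 and 10424 bp between them, and on day 7 Efna1 (0.44 ± 0.090, adjusted p = 0.00259) and Efna4 (0.20 ± 0.060, adjusted p = 0.0203) were higher while Efna3 was lower. The call of Efna4 was lost without 4 of the 8 libraries in turn on day 7 (shRNA-CON replicates 3 and 4, shRNA-RUS replicates 2 and 3; adjusted p of limma up to 0.0542), and that of day 5 without 6 of 8 (all but replicate 4 of either shRNA; up to 0.0847).

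**Figure D2:**
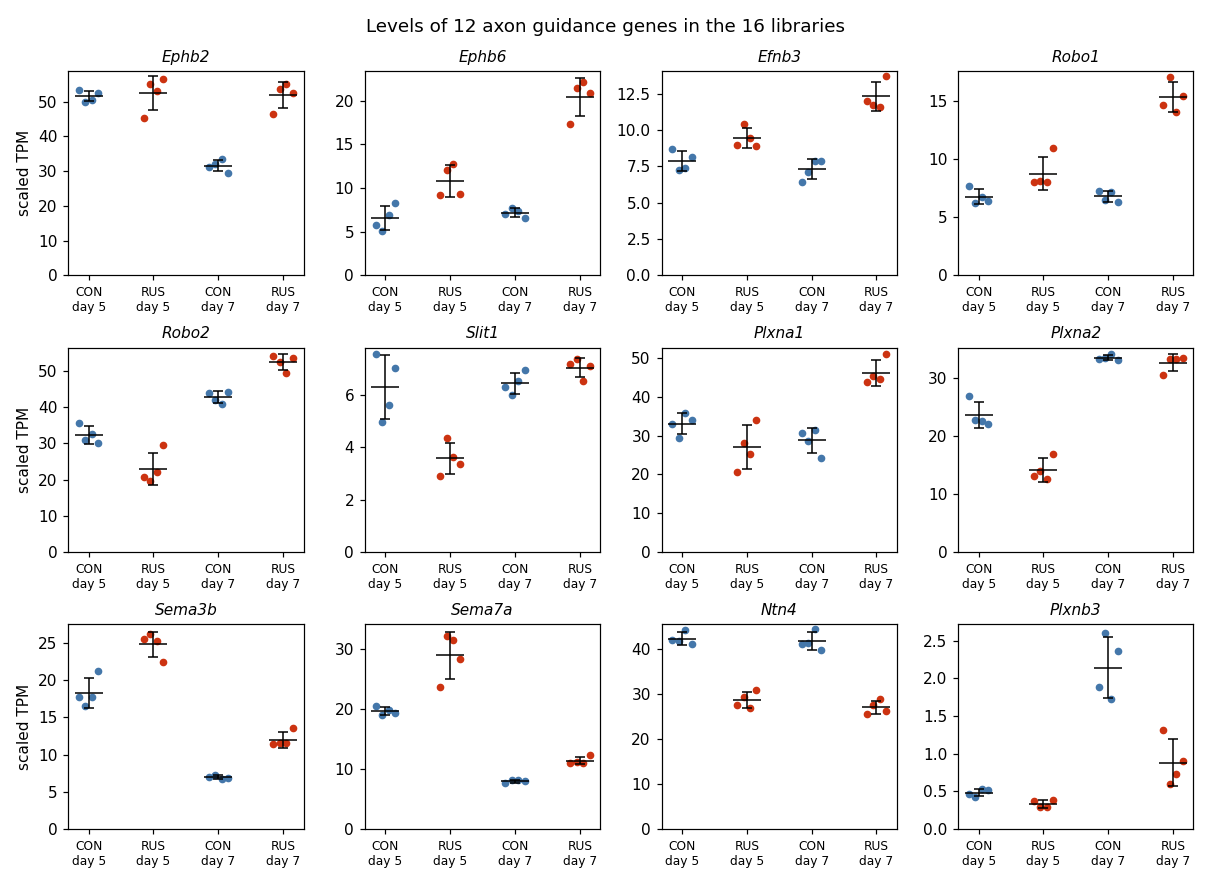
Scaled TPM (y axis, from 0) of 12 axon guidance genes in the 4 shRNA-CON (blue) and 4 shRNA-RUS (red) libraries of each day; points are libraries, and black marks with bars are the mean and SD of 4. Ephb6, Efnb3 and Robo1 lie above the controls on both days, Ntn4 below them on both, and Robo2 below on day 5 and above on day 7.

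The Robos, the receptors of Slits that keep commissural axons from crossing the midline again, split by gene rather than moving as a family. Robo1 (chr16:72308306-73046095, + strand) was higher on both days. The day 7 libraries had 7.29, 6.54, 7.20 and 6.29 scaled TPM in shRNA-CON and 14.7, 17.1, 14.1 and 15.5 in shRNA-RUS. The groups were far apart, at 1.17 ± 0.078, adjusted p = 2.42e-06. On day 5 the libraries had 7.74, 6.22, 6.79 and 6.42 and 8.02, 8.11, 8.03 and 11. Here shRNA-RUS replicate 4 stood above the other 3, the groups did not overlap, and the log2 fold change was 0.36 ± 0.12, adjusted p = 0.0450. The day 5 call was lost without any single library other than shRNA-CON replicate 1, with adjusted p of limma up to 0.110 and values of 0.25 to 0.42.

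Robo2 (chr16:73891839-74411825, - strand), which gave 70% to 86.0% of the summed level of the Robos, changed direction between the days. On day 5 it lay at 35.7, 31, 32.6 and 30.1 in shRNA-CON and at 20.7, 19.6, 22.2 and 29.4 in shRNA-RUS. Every shRNA-RUS library was below the controls, replicate 4 only just, and the log2 fold change was -0.50 ± 0.12, adjusted p = 0.0109. On day 7 the control libraries had 43.9, 41.8, 40.9 and 44.2 and the shRNA-RUS libraries 54.1, 52.4, 49.3 and 53.6, with all of the latter above (0.31 ± 0.041, adjusted p = 0.000191). Between the days the effect differed by 0.80 ± 0.14, adjusted p = 0.000490.

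Robo3, the member that lets commissural axons approach the midline, was low and lower in shRNA-RUS on both days. The day 5 libraries had 0.775, 0.997, 0.752 and 0.751 scaled TPM in shRNA-CON and 0.0710, 0.269, 0.486 and 0.108 in shRNA-RUS, and on day 7 0.317, 0.404, 0.211 and 0.468 and 0.176, 0.137, 0.0636 and 0.0818. The groups overlapped on neither day, and the log2 fold changes were -1.59 ± 0.37, adjusted p = 0.00938 and -1.08 ± 0.30, adjusted p = 0.0136. The authors' base mean, the mean of normalized counts, was 20.7 for Robo3 on day 5 and 10.2 on day 7, so these values rest on few reads. Robo4, the endothelial member, whose gene lies 553 bp from Robo3 on chromosome 9, was at 0.0467 to 0.412 scaled TPM in all libraries and was not called on day 7 (-0.54 ± 0.30, adjusted p = 0.177).

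Of the Slits, the secreted ligands of the Robos, Slit1 was lower on day 5 and none was called on day 7. Slit1 had 7.56, 4.95, 5.61 and 7.03 scaled TPM in shRNA-CON and 2.92, 4.36, 3.63 and 3.35 in shRNA-RUS on day 5, without overlap (-0.79 ± 0.16, adjusted p = 0.00520). Its day 7 levels were 6.28, 5.97, 6.53 and 6.93 and 7.16, 7.34, 6.52 and 7.09, ranges that overlap (0.14 ± 0.067, adjusted p = 0.114). Slit2, with 65.6% to 83.9% of the sum, had 19.8, 14.9, 14.1 and 14.5 and 11.8, 14.8, 12.7 and 20.6 on day 5 (-0.10 ± 0.17, adjusted p = 0.713). On day 7 its libraries were at 15.1, 15.8, 16 and 16.4 and 15.6, 19, 16 and 14.8, and the groups overlapped on both days (0.06 ± 0.076, adjusted p = 0.581). The highest Slit2 value of each day 5 group came from 1 library, replicate 1 of shRNA-CON and replicate 4 of shRNA-RUS.

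Semaphorins, the largest family with 20 genes, were called in both directions, 5 higher and 4 lower of 19 on day 5 and 8 higher and 4 lower on day 7. The secreted class 3 members, most of which use neuropilins, had 1 higher (Sema3b) and 3 lower (Sema3c, Sema3d and Sema3f) of 6 on day 7. The membrane-spanning class 6 members, which bind A-type plexins, had 3 higher and none lower of 4. The summed level of all semaphorins was 289.0 to 302.6 scaled TPM in shRNA-CON and 306.7 to 328.5 in shRNA-RUS on day 7.

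Sema3b and its neighbour Sema3f, 72270 bp apart on chromosome 9, moved in opposite directions on both days. Sema3b had 17.7, 16.5, 17.7 and 21.2 in shRNA-CON and 25.5, 26.2, 25.2 and 22.4 in shRNA-RUS on day 5 (0.45 ± 0.088, adjusted p = 0.00422). On day 7 it had 7.01, 7.25, 6.75 and 6.90 and 11.4, 11.5, 11.6 and 13.6 (0.79 ± 0.069, adjusted p = 1.24e-05). All shRNA-RUS libraries lay above the controls of their day. Sema3f, a repellent that acts through Nrp2, had 17.7, 18.3, 18 and 16.6 and 15, 15.1, 15.5 and 14.6 on day 5 (-0.23 ± 0.057, adjusted p = 0.0134). The day 7 libraries had 16.6, 16.1, 19.2 and 15.8 and 12.7, 13.9, 11.9 and 13.1 (-0.37 ± 0.074, adjusted p = 0.00231), with all shRNA-RUS libraries below the controls on both days. The day 5 call of Sema3f was lost with quantile normalization (log2 fold change -0.17).

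Sema3d (chr5:12383385-12588948, + strand) had 1.55, 1.64, 1.60 and 1.37 scaled TPM in shRNA-CON and 0.509, 0.432, 0.382 and 0.571 in shRNA-RUS on day 5. The day 7 libraries had 1.06, 1.01, 1.24 and 1.36 and 0.546, 0.495, 0.400 and 0.318. The groups were far apart on both days, and the log2 fold changes were -1.51 ± 0.16, adjusted p = 0.000160 and -1.24 ± 0.19, adjusted p = 0.000447. Sema3c, which can attract cortical axons, had 36.3, 37.3, 36.1 and 36.3 and 28.2, 27.5, 28.2 and 22.8 on day 7, without overlap (-0.44 ± 0.069, adjusted p = 0.000511). On day 5 the ranges of Sema3c overlapped, with 19.2, 16.4, 16.9 and 17.1 and 17.1, 12, 12.8 and 14.7 (-0.31 ± 0.11, adjusted p = 0.0588). Neither Sema3a, the classical growth cone collapsing factor, nor Sema3e was called on either day, with log2 fold changes of 0.04 and 0.06 on day 5 and -0.38 and -0.08 on day 7.

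In class 6, Sema6a had 39.6, 35.9, 36.9 and 35.1 in shRNA-CON and 45.3, 50.7, 47.3 and 55.6 in shRNA-RUS on day 5 (0.43 ± 0.073, adjusted p = 0.00196). Its day 7 levels were 27.6, 27.3, 28.5 and 28.3 and 42.8, 46.7, 48.9 and 46.9 (0.74 ± 0.047, adjusted p = 1.90e-06). The groups did not overlap on either day; with TPM as deposited the day 5 call was lost (log2 fold change 0.27). Sema6d, the semaphorin at the highest level, had 67.7, 56.5, 59.9 and 54.9 and 38.3, 38.6, 35.3 and 52.9 on day 5, where shRNA-RUS replicate 4 lay close to the controls and the others well below (-0.54 ± 0.12, adjusted p = 0.00838). On day 7 Sema6d had 84.8, 86.5, 87.2 and 89.1 and 79.9, 84.1, 82.2 and 76.5 (-0.09 ± 0.037, adjusted p = 0.0667), and these groups did not overlap although the test was not passed. Sema6b was called higher on both days and Sema6c on day 7, at 0.45 ± 0.15, adjusted p = 0.0437, 0.37 ± 0.096, adjusted p = 0.0107 and 0.42 ± 0.087, adjusted p = 0.00308. The day 5 call of Sema6b was lost without 6 of the 8 libraries in turn (all but replicate 4 of either shRNA), with adjusted p of limma up to 0.108.

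Sema7a, the GPI-anchored semaphorin, which promotes axon outgrowth, had 20.6, 19, 19.9 and 19.4 in shRNA-CON and 23.7, 32.2, 31.6 and 28.4 in shRNA-RUS on day 5 (0.54 ± 0.096, adjusted p = 0.00243). On day 7 the levels were lower in both, at 7.66, 8.15, 8.16 and 8.02 and 11, 11.2, 11.1 and 12.3 (0.52 ± 0.056, adjusted p = 4.70e-05). The shRNA-RUS libraries were above the controls of the same day throughout. Sema4b, a ligand found at synapses, had 16.4, 15.4, 15.4 and 16 and 12, 15.7, 14.4 and 13.9 on day 5 (-0.17 ± 0.084, adjusted p = 0.152). On day 7 it had 11.8, 12.1, 12 and 11.1 and 15.8, 20, 19 and 21.2, without overlap (0.70 ± 0.088, adjusted p = 0.000133). Sema4a had 5.32, 4.01, 3.58 and 4.50 and 2.36, 2.87, 3.19 and 3.13 on day 5 (-0.57 ± 0.14, adjusted p = 0.0150), a call lost with quantile normalization (-0.41, adjusted p of limma 0.0588). On day 7 Sema4a had 3.0, 2.73, 2.92 and 3.20 and 2.75, 2.60, 2.13 and 4.56, where shRNA-RUS replicate 4 stood above all other libraries (-0.02 ± 0.20, adjusted p = 0.951).

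Sema4d, a ligand of Plxnb1 that is also made by oligodendrocyte lineage and immune cells, was lower on day 7. It had 8.84, 9.08, 9.18 and 9.76 in shRNA-CON and 6.24, 6.84, 7.02 and 8.0 in shRNA-RUS, without overlap (-0.38 ± 0.080, adjusted p = 0.00317). Its day 5 levels were 13.6, 13.1, 14.5 and 13 and 11.9, 15.3, 13.2 and 15 (0.02 ± 0.091, adjusted p = 0.866). On day 7 the oligodendrocyte lineage markers were lower in shRNA-RUS too, 6 of 8, with sums of 374.8 to 411.7 in shRNA-CON and 238.6 to 263.2 in shRNA-RUS, and so were 7 of 7 microglia markers, with sums of 68.1 to 73.4 and 29.4 to 38.6. On day 5, when Sema4d was not called, 4 of 8 oligodendrocyte lineage markers (sums of 247.4 to 329.4 and 165.8 to 253.7) and 3 of 7 microglia markers (31.5 to 35.6 and 24.3 to 32.2) were lower as well, and both pairs of sums overlapped. Among all genes, 25.8% were called lower on day 7 and 17.9% on day 5. None of these cell type markers was at 0 in all libraries of a group. Their part in the lower levels of Sema4d was not tested.

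Plexins, the receptors of semaphorins, held the highest summed level of the 9 families, 481.7 to 502.5 scaled TPM in shRNA-CON on day 5. No plexin was called higher and 3 were called lower (Plxna2, Plxnc1 and Plxnd1) on day 5, and 5 were higher and Plxnb3 lower on day 7. The day 5 call of Plxnc1 was lost with the replicate block (adjusted p of limma 0.0616) and that of Plxnd1 without shRNA-CON replicate 3 (0.0551). The sums in shRNA-RUS were 372.4 to 492.8 on day 5, where replicate 1 lay lowest, and 455.8 to 517.2 on day 7, against 391.6 to 433.5 in shRNA-CON of that day.

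Plxna1 (chr6:89316314-89362620, - strand), a receptor that pairs with neuropilins, had 33.1, 29.3, 35.9 and 34 in shRNA-CON and 20.6, 28, 25.3 and 34.1 in shRNA-RUS on day 5. The shRNA-RUS libraries were spread widely and replicate 4 lay among the controls (-0.31 ± 0.14, adjusted p = 0.123). The day 7 libraries had 30.7, 28.6, 31.5 and 24.3 and 43.7, 45.3, 44.5 and 51.1, without overlap (0.70 ± 0.087, adjusted p = 0.000122). The difference between the days, 0.99 ± 0.17, adjusted p = 0.000637, was the largest of any member.

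Plxna2 had 26.9, 22.8, 22.6 and 22.1 in shRNA-CON and 13.1, 14, 12.6 and 17 in shRNA-RUS on day 5, without overlap (-0.73 ± 0.10, adjusted p = 0.000767). On day 7 it was at 33.3, 33.6, 34.2 and 33.2 and 30.5, 33.4, 33.4 and 33.6 (-0.03 ± 0.044, adjusted p = 0.668), and the ranges overlapped. Plxna3 showed the reverse order. On day 5 it had 23.5, 19.5, 20.8 and 19.7 and 16.5, 22.8, 24 and 25.3 (0.07 ± 0.13, adjusted p = 0.703), with overlap. Its day 7 levels were 29.9, 27.1, 26.6 and 27.9 and 41, 46, 47.9 and 52.2 (0.75 ± 0.073, adjusted p = 2.46e-05), with every shRNA-RUS library above the controls. Plxna4, at 2.51 to 4.59 scaled TPM on day 5 and 8.02 to 9.91 on day 7, was higher on day 7 (0.24 ± 0.050, adjusted p = 0.00277). It overlaps 3 annotated genes on the other strand, and the strand setting of the count is not given in the sources used here. Other members have such overlaps too, among them Ephb1 with 6 genes on the other strand and Ntn4 with 3.

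Plxnb2, which is active in cortical progenitors, had the highest level of all members and gave 46.0% to 63.5% of the plexin sum. The day 5 libraries had 240.0, 280.2, 265.3 and 269.8 in shRNA-CON and 217.2, 283.3, 312.8 and 248.9 in shRNA-RUS (0.00 ± 0.11, adjusted p = 0.999), with wide overlap. On day 7 it had 211.6, 211.5, 202.5 and 184.3 and 209.6, 242.8, 244.7 and 241.0 (0.23 ± 0.065, adjusted p = 0.0173), where shRNA-RUS replicate 1 lay within the controls. Scaling to the 75th percentile took this call away (0.17, adjusted p of limma 0.0688). Plxnb1, with means of 85.3 and 94.3 on day 7, was called at 0.16 ± 0.057, adjusted p = 0.0437, and lost the call without any single library other than shRNA-RUS replicate 1 (adjusted p up to 0.106).

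Plxnb3 was the one plexin that was lower on day 7. Its libraries had 0.461, 0.424, 0.525 and 0.521 in shRNA-CON and 0.367, 0.292, 0.289 and 0.388 in shRNA-RUS on day 5 (-0.42 ± 0.19, adjusted p = 0.126), and 1.88, 2.60, 1.73 and 2.36 and 1.31, 0.596, 0.727 and 0.900 on day 7 (-1.22 ± 0.23, adjusted p = 0.00161). The groups did not overlap on either day. Plxnb3 is expressed mainly in the oligodendrocyte lineage, whose marker sums on both days are given with Sema4d. Their part in the level of Plxnb3 was not tested.

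The neuropilins Nrp1 and Nrp2, coreceptors of class 3 semaphorins, were called on neither side on day 5 and were both lower on day 7. Nrp1 had 16.6, 17.7, 16.8 and 17.6 in shRNA-CON and 14.8, 14.3, 14.7 and 14.4 in shRNA-RUS on day 7 (-0.22 ± 0.042, adjusted p = 0.00171). Its day 5 levels were 14, 11.9, 13 and 12.7 and 13.4, 12.7, 12.6 and 15.2 (0.06 ± 0.081, adjusted p = 0.585). The day 7 groups of Nrp1 did not overlap, while those of day 5 did. Nrp2 differed by -0.17 ± 0.048, adjusted p = 0.0162 on day 7, and its call was lost in the fit with the replicate block (adjusted p of limma 0.0557).

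**Figure D3:**
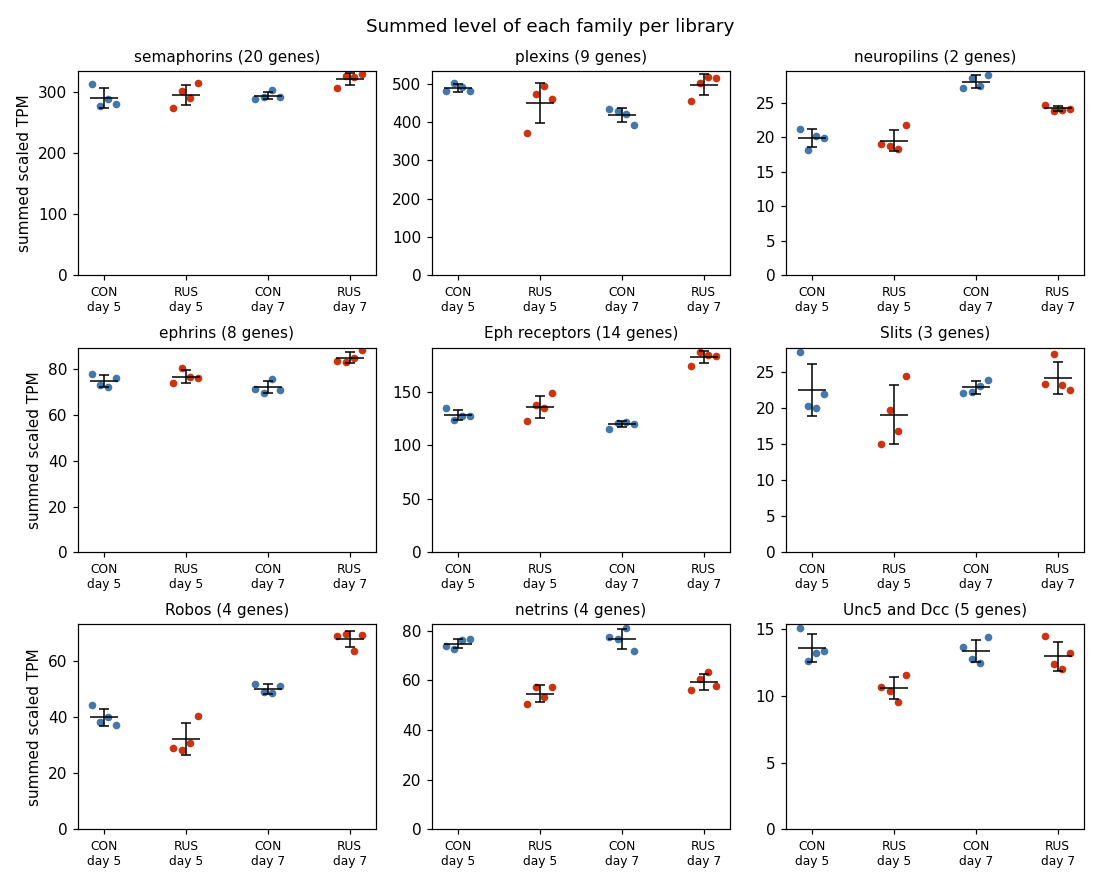
Summed scaled TPM (y axis, from 0) of each of the 9 families in the 16 libraries, shRNA-CON in blue and shRNA-RUS in red; points are libraries, and black marks with bars are the mean and SD of 4. The Eph receptor sums on day 7 do not overlap (at most 122.0 in shRNA-CON, at least 173.9 in shRNA-RUS), and the netrin sums are lower in shRNA-RUS on both days.

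Netrins were the one family whose sums were lower in shRNA-RUS without overlap on both days, 72.6 to 76.7 against 50.5 to 57.4 scaled TPM on day 5 and 71.7 to 81.1 against 56.1 to 63.6 on day 7. Ntn4 (chr10:93640681-93747207, + strand), a netrin that binds laminin in the basement membrane, gave 45.5% to 58.2% of the sum. It had 42.1, 41.9, 44.4 and 41.2 in shRNA-CON and 27.7, 29.3, 26.9 and 30.9 in shRNA-RUS on day 5, and 41.2, 41.5, 44.6 and 39.9 and 25.6, 27.6, 29 and 26.3 on day 7. The groups were far apart on both days and changed little between them, with log2 fold changes of -0.56 ± 0.059, adjusted p = 0.000149 and -0.61 ± 0.054, adjusted p = 1.45e-05. Both calls held under every alternative tried and without each library in turn. Ntn1, the classical ligand of Dcc, was lower on day 5 (-0.32 ± 0.071, adjusted p = 0.00729), with means of 24.9 and 19.9, and was not called on day 7 (-0.14 ± 0.060, adjusted p = 0.0774). Ntn3 was not called on either day and Ntn5, at 0.291 to 0.491 on day 5, was at 0 to 0.0839 on day 7, where it was not tested.

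The netrin receptors were at low levels, 9.56 to 15.1 scaled TPM in sum. On day 5 Unc5a and Unc5c were lower and on day 7 Unc5b was higher; Dcc and Unc5d were not called on either day. Unc5a had 2.72, 2.05, 2.26 and 2.87 in shRNA-CON and 1.86, 1.78, 1.41 and 1.67 in shRNA-RUS on day 5 (-0.52 ± 0.14, adjusted p = 0.0214), without overlap. Unc5c had 3.42, 2.82, 2.51 and 2.76 and 2.09, 1.57, 1.68 and 2.38 on day 5 (-0.56 ± 0.16, adjusted p = 0.0221), also without overlap. Each of these calls was lost without 3 of the 8 libraries in turn, Unc5a without shRNA-CON replicates 1 and 4 and shRNA-RUS replicate 3 (adjusted p of limma up to 0.0604) and Unc5c without shRNA-CON replicate 1 and shRNA-RUS replicates 2 and 3 (up to 0.0614). On day 7 Unc5a had 2.11, 1.75, 1.86 and 2.14 and 1.76, 1.91, 1.77 and 2.03 (-0.05 ± 0.11, adjusted p = 0.715). On day 7 Unc5c had 4.17, 3.77, 3.75 and 4.50 and 4.13, 3.36, 3.24 and 3.55 (-0.16 ± 0.099, adjusted p = 0.205), and both ranges overlapped. Unc5b had 5.61, 5.28, 5.86 and 5.30 and 4.53, 5.31, 4.63 and 4.86 on day 5 (-0.19 ± 0.084, adjusted p = 0.124) and 1.88, 1.85, 2.06 and 2.01 and 2.45, 2.59, 2.59 and 2.75 on day 7 (0.41 ± 0.090, adjusted p = 0.00403). The day 7 groups did not overlap, and both lay far below those of day 5. Dcc had means of 2.00 and 1.54 on day 5 (-0.35 ± 0.16, adjusted p = 0.123) and of 3.95 and 3.23 on day 7 (-0.28 ± 0.11, adjusted p = 0.0599).

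From day 5 to day 7 in shRNA-CON, 22 members were called higher and 22 lower of 68 tested, beside 26.9% higher and 21.6% lower among 23789 genes (48.5% in either direction). The groups did not overlap in 45 members, against 46.9% of all genes, and 43.5% of all genes were both called and without overlap. Of 34 ligands 6 were higher and 13 lower, and of 34 receptors 16 were higher and 9 lower. The increases included those of Plxnb3 (1.93 ± 0.20, adjusted p = 1.04e-06), Plxna4 (1.17 ± 0.11, adjusted p = 2.47e-07) and Sema3c (1.07 ± 0.096, adjusted p = 2.13e-07). The decreases included those of Plxnd1 (-1.53 ± 0.11, adjusted p = 1.39e-08), Unc5b (-1.45 ± 0.076, adjusted p = 4.33e-10), Sema3b (-1.37 ± 0.079, adjusted p = 1.26e-09) and Sema7a (-1.29 ± 0.079, adjusted p = 2.47e-09). In shRNA-RUS 33 members were higher and 16 lower on day 7, beside 60.8% of all genes called, 35% higher and 25.8% lower; with TPM as deposited it was 42 and 9, beside 49.6% higher and 14.9% lower of all genes. The groups did not overlap in 44, against 52.5% of all genes, 51.4% being called as well. Receptors were higher in 21 and lower in 4 of 34. All 4 A-type plexins were higher, from 0.79 for Plxna1 to 1.76 for Plxna4.

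The knockdown effect differed between the days in 28 of 68 members, more positive on day 7 in 25 and more negative in 3 (Nrp1, Plxnb3 and Sema4d), around a median difference of 0.30 on the log2 scale. Over all genes 29.8% were called, 15.2% more positive and 14.6% more negative, around a median of 0.04. Among receptors the counts were 15 and 2 of 34, and among ligands 10 and 1 of 34. Of the 9 plexins 7 were more positive and 1 more negative, all 4 A-type plexins among the former; 4 of 5 EphB receptors were also more positive. With TPM as deposited the counts over all members were 35 and 0, beside 24% and 8.63% of all genes. The 3 members that were more negative kept their sign there but lost the call, at -0.13 for Nrp1 (limma, adjusted p = 0.440), -0.24 for Sema4d (adjusted p = 0.201) and -0.67 for Plxnb3 (adjusted p = 0.0874).

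The 6 members with the smallest adjusted p in this test were Ephb2 (0.69 ± 0.097, adjusted p = 0.000113), Sema4b (0.86 ± 0.12, adjusted p = 0.000135), Plxna2 (0.70 ± 0.12, adjusted p = 0.000462), Robo2 (0.80 ± 0.14, adjusted p = 0.000490), Plxna1 (0.99 ± 0.17, adjusted p = 0.000637) and Robo1 (0.80 ± 0.15, adjusted p = 0.000891). From day 5 to day 7 the log2 fold change of Ephb2 was -0.70 in shRNA-CON and -0.01 in shRNA-RUS, that of Sema4b -0.42 and 0.43, that of Plxna1 -0.20 and 0.79, and that of Robo1 0.01 and 0.81. Robo2 and Plxna2 rose in both, by 0.40 and 0.51 in shRNA-CON and by 1.20 and 1.21 in shRNA-RUS. The largest difference after Plxna1 was that of Slit1 (0.92 ± 0.18, adjusted p = 0.00153), which was at 6.29 and 6.43 on average in shRNA-CON and at 3.57 and 7.03 in shRNA-RUS.

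**Figure D4:**
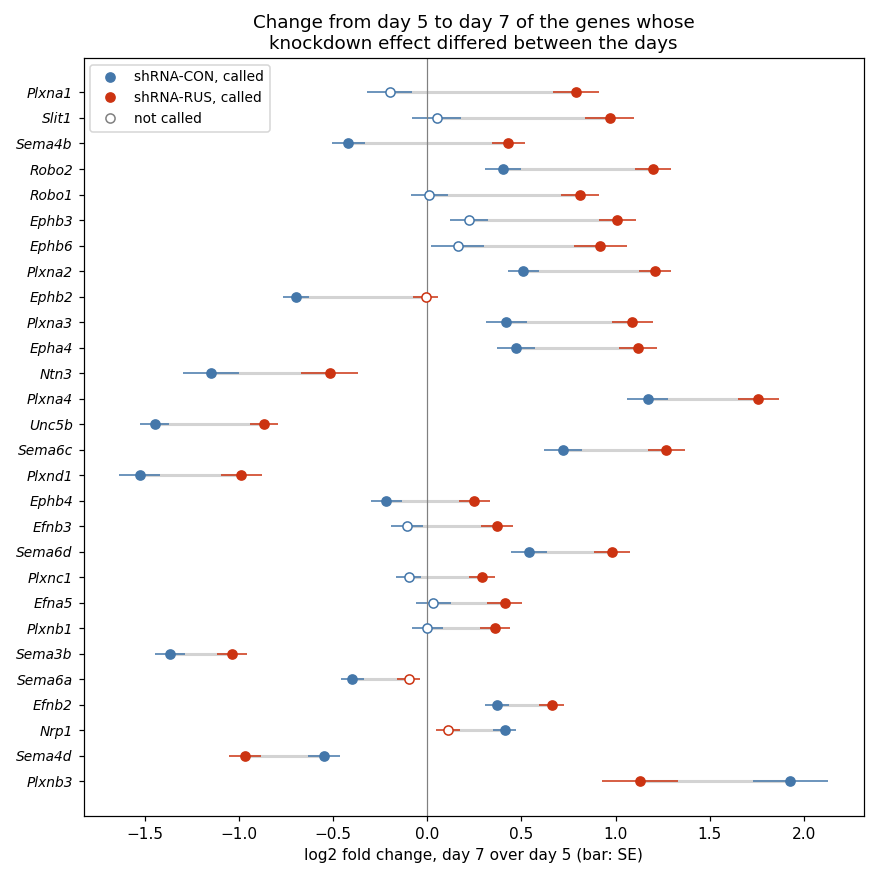
Log2 fold change from day 5 to day 7 (x axis) in shRNA-CON (blue) and shRNA-RUS (red) for the 28 members whose knockdown effect differed between the days, ordered by that difference; bars are the SE and filled points passed an adjusted p of 0.05. The red point lies to the right of the blue one in 25 genes and to the left in Nrp1, Sema4d and Plxnb3.

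Genes that carry these signals inside the cell were counted in the same way, to be read beside 14.8% of all genes called higher and 17.9% lower on day 5 and 23.4% and 25.8% on day 7. Of 15 semaphorin and plexin effectors 3 were higher and 4 lower on day 5, and 10 higher and 3 lower on day 7. Crmp1, a mediator of Sema3a signals, was at -0.38 on day 5 and 0.22 on day 7, and Arhgef12, an exchange factor bound by B-type plexins, at -0.46 and 0.33. Of 9 Slit and Robo effectors 1 was higher and 4 lower on day 5, and 5 higher and 1 lower on day 7. Among them Abl2, a tyrosine kinase, was at 0.35 and 1.19, and Srgap3, a GAP for Rac1, at -0.36 and 0.16. Of 10 netrin effectors 1 was higher and 4 lower on day 5, and 6 higher and 2 lower on day 7; Trio, an exchange factor for Rac1, was at -0.50 and 0.13. Of 13 Eph and ephrin effectors 2 were higher and 4 lower on day 5, and 5 higher and none lower on day 7. Kalrn, an exchange factor of the same kind as Trio, was at -0.94 on day 5, and was not called on day 7 (-0.10). In the test of the difference between the days, where 15.2% of all genes were more positive and 14.6% more negative, 8 of the semaphorin and plexin effectors were more positive on day 7 and 2 more negative, and 5 Slit and Robo, 7 netrin and 5 Eph and ephrin effectors were more positive and none of these 3 lists had a member that was more negative. The values of named genes are log2 fold changes that passed limma's test unless said otherwise.

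Of 19 guidance genes outside the families named above, 5 were higher and 5 lower on day 5, and 7 higher and 6 lower on day 7, beside 32.7% and 49.2% of all genes called in either direction. Both netrin-G genes were higher on both days, Ntng1 at 0.50 and 1.06 and Ntng2 at 0.91 and 1.24. Neogenin (Neo1), a relative of Dcc, was lower on both days, at -0.73 and -0.60, and its ligand Rgma was higher, at 0.46 and 1.17. Draxin, a secreted netrin antagonist, was lower on both days, at -0.70 and -0.68.

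Cell type markers were counted in the same way. Of all genes, 14.8% were called higher and 17.9% lower on day 5, and 23.4% and 25.8% on day 7. Of 9 neuron markers 3 were higher and 2 lower on day 5, with sums of 597.7 to 676.0 in shRNA-CON and 664.0 to 726.1 in shRNA-RUS, and 4 were higher and 3 lower on day 7, with sums of 756.2 to 839.2 in shRNA-CON and 732.6 to 853.8 in shRNA-RUS; the sums overlap on both days. Of 6 interneuron markers 3 were lower on day 5 and 4 higher on day 7. Their sums were 169.2 to 209.0 against 143.3 to 174.1 on day 5 and 245.4 to 264.8 against 274.4 to 318.2 on day 7. Of 5 pericyte markers Pdgfrb was called higher on both days and Anpep lower on day 5; the sums were 17.1 to 17.4 and 16.7 to 22.8 on day 5 and 11.3 to 12.4 and 26.2 to 29.0 on day 7, most of it Pdgfrb. Fibroblast and meningeal markers had 2 of 5 tested higher on day 7, with sums of 4.65 to 6.87 and 6.50 to 8.64 that overlap, and none called on day 5. Astrocyte markers had 1 of 7 higher and 1 lower on day 5, where their sums were 4097.5 to 4230.5 and 4965.6 to 5140.5, a difference that lay in Gfap (means of 1847.7 and 2791.1), and 2 higher and 2 lower on day 7, with sums of 2293.5 to 2411.7 and 2307.4 to 2587.0. The part of these markers in the levels of the guidance genes was not tested.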

How the data were processed

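Neural stem cells were profiled by RNA-seq in 16 libraries, in the 4 groups that the labels give. The authors selected polyA RNA, aligned reads with STAR to mm10 with the GRCm38.99 transcript table and estimated abundances with RSEM; version numbers and the strand setting are not given in the sources used here. Values were deposited per day as TPM, which sum to 1000000 in each library. The authors' base mean, a normalized signal averaged over libraries by DESeq2, was used only as a sign of depth. The deposited log2 fold changes, test scores and p-values of the authors' own comparison were not used.

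Each library was scaled by its median ratio to the geometric mean of all libraries (genes with at least 1 TPM in all libraries of a fit). A gene entered the test, done with limma 3.58.1 (R 4.3.3; lmFit, eBayes with a trend, two-sided, Benjamini-Hochberg adjustment over all genes tested), if its mean in the fit reached 0.1 TPM. Each day was fitted by itself; comparisons between days came from 1 fit of 16 libraries, after 106 lines with differing or missing symbols were left out, and printed levels use the scaling of that fit (13614 genes). The 69 members and all gene lists were chosen with earlier results of these data known. Values in every library are given for members called with a mean of at least 1 TPM as deposited on that day and no overlap (up to 8 per direction and day, by size), the highest member of each family, and the 6 members with the smallest adjusted p for the difference between days. Those of Robo3 and Sema3d are printed too, although their means fell below that level. Gene positions came from GENCODE vM21 (GRCm38), promoters from RefSeq (GRCm38.p6); figures were drawn with Python 3.11.15 and matplotlib 3.10.9. The paper calls the libraries replicates and gives the matching RT-qPCR of RUS over several experiments. It does not say whether the libraries of a group came from separate cultures, so p-values measure the spread between libraries, which may be technical. The labels give no batch or date. Alternatives were other added values (0.01 and 1), filters, scalings, eBayes without a trend, a replicate block, and leaving out each library. One further gene list is not reported here.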

Additional observations from a re-analysis of the deposited data

Results flagged for a closer look

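The rule for values in every library chose 31 members, without Robo3 and Sema3d. In 11 of their 124 groups of 4 libraries, 1 library stood far from the other 3. Chance gives this in about 1 of 20 groups. On day 5 these were shRNA-CON replicate 1 for Ephb1 (6.69 scaled TPM), Plxna2 (26.9) and Slit2 (19.8), and shRNA-RUS replicate 4 for Efnb2 (20.6) and Robo1 (11). On day 7 they were shRNA-CON replicate 1 for Epha7 (2.05) and replicate 3 for Ephb4 (8.67), and shRNA-RUS replicate 1 for Plxna2 (30.5) and Plxnb2 (209.6) and replicate 4 for Sema3b (13.6) and Sema3c (22.8).

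The knockdown effect differed between the days, by limma's test of the difference, in 28 members, with the effect on day 7 minus that on day 5 given here on the log2 scale. Among Eph receptors it was 0.65 for Epha4, 0.69 for Ephb2, 0.78 for Ephb3, 0.48 for Ephb4 and 0.76 for Ephb6, and among ephrins 0.38 for Efna5, 0.29 for Efnb2 and 0.48 for Efnb3. Plexins had 0.99 for Plxna1, 0.70 for Plxna2, 0.67 for Plxna3, 0.60 for Plxna4, 0.36 for Plxnb1, -0.80 for Plxnb3, 0.40 for Plxnc1 and 0.54 for Plxnd1, and Nrp1 had -0.30. Semaphorins had 0.33 for Sema3b, 0.86 for Sema4b, -0.41 for Sema4d, 0.30 for Sema6a, 0.55 for Sema6c and 0.44 for Sema6d. Robo1 and Robo2 had 0.80 each and Slit1 had 0.92. Ntn3 had 0.63 and Unc5b 0.58. The call was lost without at least 1 library for Efna5, Efnb2, Ntn3, Plxnb1, Plxnb3, Sema3b and Sema6d, with adjusted p up to 0.0979 for Plxnb3, which lost it without 13 of the 16 libraries in turn.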

How the results depend on the processing

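TPM hold no read depth, so the precision at low levels is not known, and members such as Robo3 rest on low values. The authors' base mean was 20.7 on day 5 and 10.2 on day 7 for Robo3, and 50.4 and 197.5 for Plxnb3. Over all alternatives and left-out libraries, 13 of 27 calls on day 5, 33 of 40 on day 7, 34 of 44 from day 5 to day 7 in shRNA-CON, 37 of 49 in shRNA-RUS and 18 of 28 for the difference between the days held in each. Members called higher on day 5 numbered 11, against 7 with no filter, 4 with TPM as deposited, 6 with 75th percentile scaling, 7 with eBayes without a trend, 6 with the replicate block, and 6 to 10 without 1 library. Those lower numbered 16, against 26 with TPM as deposited and 13 to 20 without 1 library. On day 7, leaving out 1 library gave 26 to 29 higher and 11 to 13 lower. From day 5 to day 7 it gave 21 to 23 and 19 to 23 in shRNA-CON, and 32 to 35 and 15 to 17 in shRNA-RUS, where TPM as deposited gave 9 lower in place of 16. For the difference between the days the 25 more positive members became 21 to 28 without 1 library, and the 3 more negative ones 2 to 4; these were 0 with TPM as deposited, 1 with 75th percentile scaling and 1 with the replicate block. The cause of these changes was not tested.

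From day 5 to day 7 in shRNA-RUS, among members called with median-ratio scaling, with the alternative or with both, TPM as deposited turned the sign of Efna4 (0.09), Efnb1 (0.07), Ephb2 (0.31), Ntn4 (0.24), Sema3f (0.10) and Sema6a (0.22), and quantile normalization that of Plxnb2 (0.27). Members called with neither could turn sign too and are not listed. Same-numbered libraries of the 2 shRNAs had correlations of -0.252 to -0.0155 on day 5 and 0.0159 to 0.101 on day 7. For differently numbered libraries these were -0.212 to 0.264 and -0.0987 to 0.0923. With so few libraries per group, these values cannot show whether the replicate numbers pair the libraries. With the replicate block the counts higher and lower were 6 and 12 on day 5, 27 and 10 on day 7, 21 and 20 from day 5 to day 7 in shRNA-CON, 33 and 15 in shRNA-RUS, and 18 and 1 for the difference.

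Summed TPM as deposited moved from the scaled sums by more than 1 SD in these group means. Netrins were at 72.9 (control) and 47.8 (knockdown) on day 5 and at 83.0 and 65.0 on day 7, and plexins at 475.7, 393.1, 452.4 and 543.6 in the same order. On day 5 in shRNA-RUS, Eph receptors were at 118.7, ephrins at 67.2, neuropilins at 17.1, semaphorins at 257.8, and Unc5 and Dcc at 9.24. On day 7, shRNA-CON and shRNA-RUS were at 129.0 and 198.8 for Eph receptors, 54.1 and 74.3 for Robos, 78.0 and 93.0 for ephrins, 30.4 and 26.4 for neuropilins, 317.3 and 351.4 for semaphorins, and 14.4 and 14.2 for Unc5 and Dcc, and Slits in shRNA-CON at 24.7.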

Other observations

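Of the 64 members tested on both days 14 were called on neither, which is 21.9% against 37.5% of all genes tested on both days. They were the ligands Efna2, Efna5, Ntn3, Sema3a, Sema3e, Sema4c, Sema4f, Sema5b, Slit2 and Slit3 and the receptors Dcc, Epha1, Epha6 and Unc5d. Sema5b, a repellent of cortical axons, had log2 fold changes of -0.13 on day 5 and 0.14 on day 7. Slit3 was at 0.20 and 0.25, and Sema4c at -0.04 and 0.17. Values that missed the threshold do not show that the levels were equal.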
